A study of Mus musculus with 4 samples.

Results

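The lysosomal genes described here are 37 listed genes that encode enzymes of the lysosomal lumen, proteins of its membrane and subunits of the pump that acidifies it. The list was given by name, and all 37 were found among the 32285 features measured. They comprise 8 cysteine proteases, 3 serine and aspartic proteases, 6 glycosidases, 3 lipid and thioester enzymes, 3 cofactors and carriers of the lumen, 6 membrane glycoproteins, 2 ion channels and 6 proton pump genes. The cells were mouse colon cells enriched by magnetic selection for CD11b, an integrin of monocytes and macrophages, and profiled by droplet sequencing of 3' ends. The tissue was either the colon lamina propria, a loose connective layer beneath the epithelium, or the solitary isolated lymphoid tissues (SILT), small lymphoid aggregates of the colon wall. Wild-type mice were Csf2+/+ and knockout mice Csf2-/-, lacking the growth factor CSF2 (GM-CSF), and both carried 1 CX3CR1-GFP and 1 CCR2-RFP reporter allele. Each combination of genotype and tissue is 1 library. The design text gives 5 mice and does not state whether their cells were pooled. With 1 library per group no test between groups was possible, so every interval below covers counting error only and not the spread between mice. The age and sex of the mice are not given in the sources used here.

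The lysosome is the compartment in which a cell breaks down what it has engulfed or retired. The vacuolar proton pump makes its lumen acidic, proteases, glycosidases and lipases digest the contents, and heavily glycosylated membrane proteins protect the wall while channels release ions from it. Macrophages, which engulf dying cells and microbes, depend on this compartment, and in dendritic cells the same proteases cut proteins for presentation to T cells. Transcription of many lysosomal genes is driven by TFEB and its relatives, which bind E-box sites close to the start of the gene.

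Promoters are shown for 5 members that the comparisons below turn on, as RefSeq gives them. They run from 250 bases before to 50 bases after the start, on GRCm38.p6, 5' to 3' on the gene's own strand, and capitals mark the E-box letters CACGTG, extended to TCACGTGA where the flanking bases also match. Both motifs read the same on both strands, and every TCACGTGA contains a CACGTG. Mcoln1 lies at chr8:3500269-3500568 (plus strand), Ctsl at chr13:64370471-64370770 (minus strand), Lamp1 at chr8:13158911-13159210 (plus strand), Gusb at chr5:130003000-130003299 (minus strand) and Ctsk at chr3:95498960-95499259 (plus strand).
Mcoln1: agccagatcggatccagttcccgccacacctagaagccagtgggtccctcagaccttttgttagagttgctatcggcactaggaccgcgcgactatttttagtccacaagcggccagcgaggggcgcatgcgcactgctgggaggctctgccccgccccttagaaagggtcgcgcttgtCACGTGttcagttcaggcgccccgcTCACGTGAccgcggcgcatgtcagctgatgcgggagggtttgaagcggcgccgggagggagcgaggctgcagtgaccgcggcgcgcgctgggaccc
Ctsl: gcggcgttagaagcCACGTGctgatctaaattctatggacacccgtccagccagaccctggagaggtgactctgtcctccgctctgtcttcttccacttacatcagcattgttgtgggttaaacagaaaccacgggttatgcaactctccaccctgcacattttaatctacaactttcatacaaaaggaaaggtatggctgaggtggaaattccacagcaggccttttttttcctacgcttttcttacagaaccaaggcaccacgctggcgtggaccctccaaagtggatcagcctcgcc
Lamp1: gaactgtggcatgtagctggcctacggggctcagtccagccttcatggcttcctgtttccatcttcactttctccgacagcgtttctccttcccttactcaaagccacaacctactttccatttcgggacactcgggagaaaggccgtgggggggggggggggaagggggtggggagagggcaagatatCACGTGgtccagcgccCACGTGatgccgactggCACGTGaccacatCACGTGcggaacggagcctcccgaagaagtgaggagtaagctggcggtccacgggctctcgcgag
Gusb: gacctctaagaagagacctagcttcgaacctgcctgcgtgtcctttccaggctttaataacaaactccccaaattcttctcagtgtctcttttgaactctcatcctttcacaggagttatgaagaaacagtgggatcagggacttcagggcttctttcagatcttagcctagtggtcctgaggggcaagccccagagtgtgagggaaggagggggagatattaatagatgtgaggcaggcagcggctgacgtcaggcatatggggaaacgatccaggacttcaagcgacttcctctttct
Ctsk: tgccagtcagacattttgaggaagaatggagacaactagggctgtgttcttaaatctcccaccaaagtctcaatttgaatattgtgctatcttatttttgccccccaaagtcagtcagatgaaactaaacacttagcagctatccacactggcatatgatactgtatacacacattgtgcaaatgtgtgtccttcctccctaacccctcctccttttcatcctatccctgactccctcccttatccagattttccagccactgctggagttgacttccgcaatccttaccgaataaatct

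Of the 37 members, 30 had an entry, with 35 promoters in all. An E-box was present in 9 of the 30 genes (30%) against 8.09% of all 27025 genes with an entry, and the longer form in 4 (13.3%) against 1.13%. Per promoter the shares were 25.7% against 7.15% for the E-box and 11.4% against 0.974% for the longer form. The longer form occurred in Atp6v1a, Ctsa, Ctsd and Mcoln1, and Ctsa held 2 copies, centred 9 bases before and 8 bases after the start. Lamp1, a glycoprotein of the lysosomal wall, held 4 E-boxes between 58 and 12 bases before the start. The E-boxes of Mcoln1 were centred 68 and 42 bases before the start, and that of Ctsl 233 bases before it. Gusb and Ctsk held neither form in these windows. These matches describe letters and were not tested for binding.

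The 4 libraries held 1967 to 7578 cells after filtering, with medians of 5817 to 9961 UMIs (unique molecules) per cell. Levels are given as CPM, the UMIs of a gene per 1000000 UMIs of the class in that library. Csf2 itself was detected as 24 UMIs in wild-type SILT (0.371 CPM), as 2 UMIs in wild-type lamina propria and not in either Csf2-/- library, where a count of 0 allows up to 0.16 CPM in lamina propria and 0.145 CPM in SILT. Xist at 266 to 825 CPM and the Y-linked Ddx3y at 28.1 to 58.4 CPM were present in every library in different proportions, so genotype cannot be told apart from the mix of sexes. Pairs of libraries shared 2 to 14 cell barcodes. Clusters were named from fixed markers. Macrophage-like cells (1018 in wild-type lamina propria, 287 in Csf2-/- lamina propria, 863 in wild-type SILT and 310 in Csf2-/- SILT) combine a cluster led by Lyve1, Cbr2 and Folr2 with a cluster led by the chemokines Ccl12, Ccl7 and Ccl4. The Ccl12-led cluster held 258, 117, 241 and 126 of these cells in that order, a larger part in both Csf2-/- libraries. Another cluster, led by Mmp13, carried 8 of 13 macrophage markers but also a migratory dendritic cell marker among its leading genes, and is kept apart under that name. The Il22ra2-high cells are the unnamed clusters with at least 500 CPM of Il22ra2, the gene of a soluble receptor that binds interleukin 22. The migratory dendritic-like cluster also passed that level, at 831 CPM, but was named by its markers and is kept apart. Only the SILT libraries held 20 or more Il22ra2-high cells (1007 wild-type and 140 Csf2-/- cells), and these combine a shallow and a deep cluster. The shallow cluster (953 and 135 cells) had medians of 1076 and 1097 UMIs per cell, and the deep cluster (54 and 5 cells) medians of 16376.5 and 23575. The deep cluster, which carried 3 of the markers of plasmacytoid dendritic cells but none among its leading genes, supplied 44.7% of the UMIs of the class in wild-type and 47.7% in Csf2-/- SILT, so nearly as many UMIs of the Csf2-/- class came from 5 cells as from the other 135.

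Members made up a large share of the RNA in macrophage-like cells, the Mmp13 cluster and the Il22ra2-high cells, and a far smaller one in vascular cells. In macrophage-like cells the 37 genes held 2.20% of UMIs in wild-type lamina propria, 2.29% in Csf2-/- lamina propria, 2.26% in wild-type SILT and 2.40% in Csf2-/- SILT. The Mmp13 cluster held 2.20% to 2.41% and the Il22ra2-high cells 2.13% in wild-type and 2.18% in Csf2-/- SILT, or 1.91% and 1.98% in their shallow cluster alone. Single barcodes with at least 500 CPM of Il22ra2, taken in place of clusters, held less, at 1.71% in wild-type and 1.47% in Csf2-/- SILT. An unnamed cluster led by Retnla held 1.87% in wild-type lamina propria, 2.39% in Csf2-/- lamina propria, where it had 22 cells, and 1.58% in wild-type SILT. Monocyte-like cells held 1.47% to 1.67%. Conventional dendritic cells of the cDC2-like class held 0.936% to 1.10%, those of the cDC1-like class 0.804% to 0.976%, and migratory dendritic-like cells 0.682% and 0.687%. Endothelial-like cells held 0.345% to 0.371% and pericyte-like cells, which wrap small vessels, 0.415% to 0.487%. The order of macrophage-like above monocyte-like above dendritic-like above vascular cells was the same in all 4 libraries. The classes were defined from expression of these cells, although the members and other lysosomal genes were left out of the clustering, so the order is a description. Within macrophage-like cells the 8 cysteine proteases alone held 0.938% to 1.01% of UMIs, the 6 membrane glycoproteins 0.436% to 0.471%, the 6 pump genes 0.112% to 0.139% and the 2 ion channels 0.00797% to 0.0144%. The 3 cofactors and carriers of the lumen held 0.361% and 0.338% in wild-type lamina propria and SILT and 0.424% and 0.427% in the Csf2-/- libraries. Both Csf2-/- libraries thus lay above both wild-type libraries, and how often other genes do so was not counted.

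**Figure D1:**
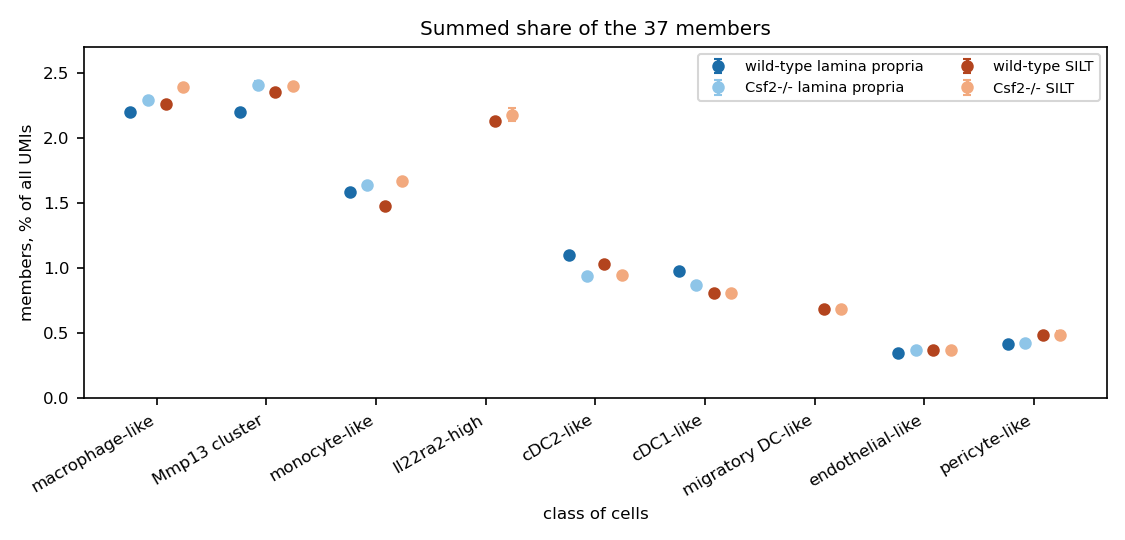
Percent of all UMIs held by the 37 members (vertical axis) in each class of cells (horizontal axis), with 1 point per library and exact 95% binomial intervals that are mostly smaller than the points. Macrophage-like cells lie between 2.20% and 2.40% and endothelial-like cells between 0.345% and 0.371%; classes with under 20 cells in a library have no point there.

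Within the phagocytes, different members were high in different classes. Of the 37 members, macrophage-like cells had the highest level of 24 in wild-type lamina propria, 21 in Csf2-/- lamina propria, 16 in wild-type SILT and 20 in Csf2-/- SILT, among the 9 classes shown in the map of levels. Among the cysteine proteases, Ctsb (cathepsin B) stood at 3257, 3118, 3066 and 2937 CPM in macrophage-like cells of wild-type lamina propria, Csf2-/- lamina propria, wild-type SILT and Csf2-/- SILT. In the other 8 classes Ctsb ranged from 136 to 2311 CPM, so the macrophage-like libraries did not overlap with any other class. Ctsc, the protease that activates granule proteases of immune cells, was likewise highest in macrophage-like cells at 1927 to 2211 CPM, against 656 to 900 CPM in monocyte-like cells. Ctss, a protease that trims the invariant chain of MHC class II, had another order: 2660 to 3968 CPM in the Mmp13 cluster, 3423 and 3311 CPM in Il22ra2-high cells, 2093 to 2939 CPM in monocyte-like cells and 1405 to 2125 CPM in macrophage-like cells.

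**Figure D2:**
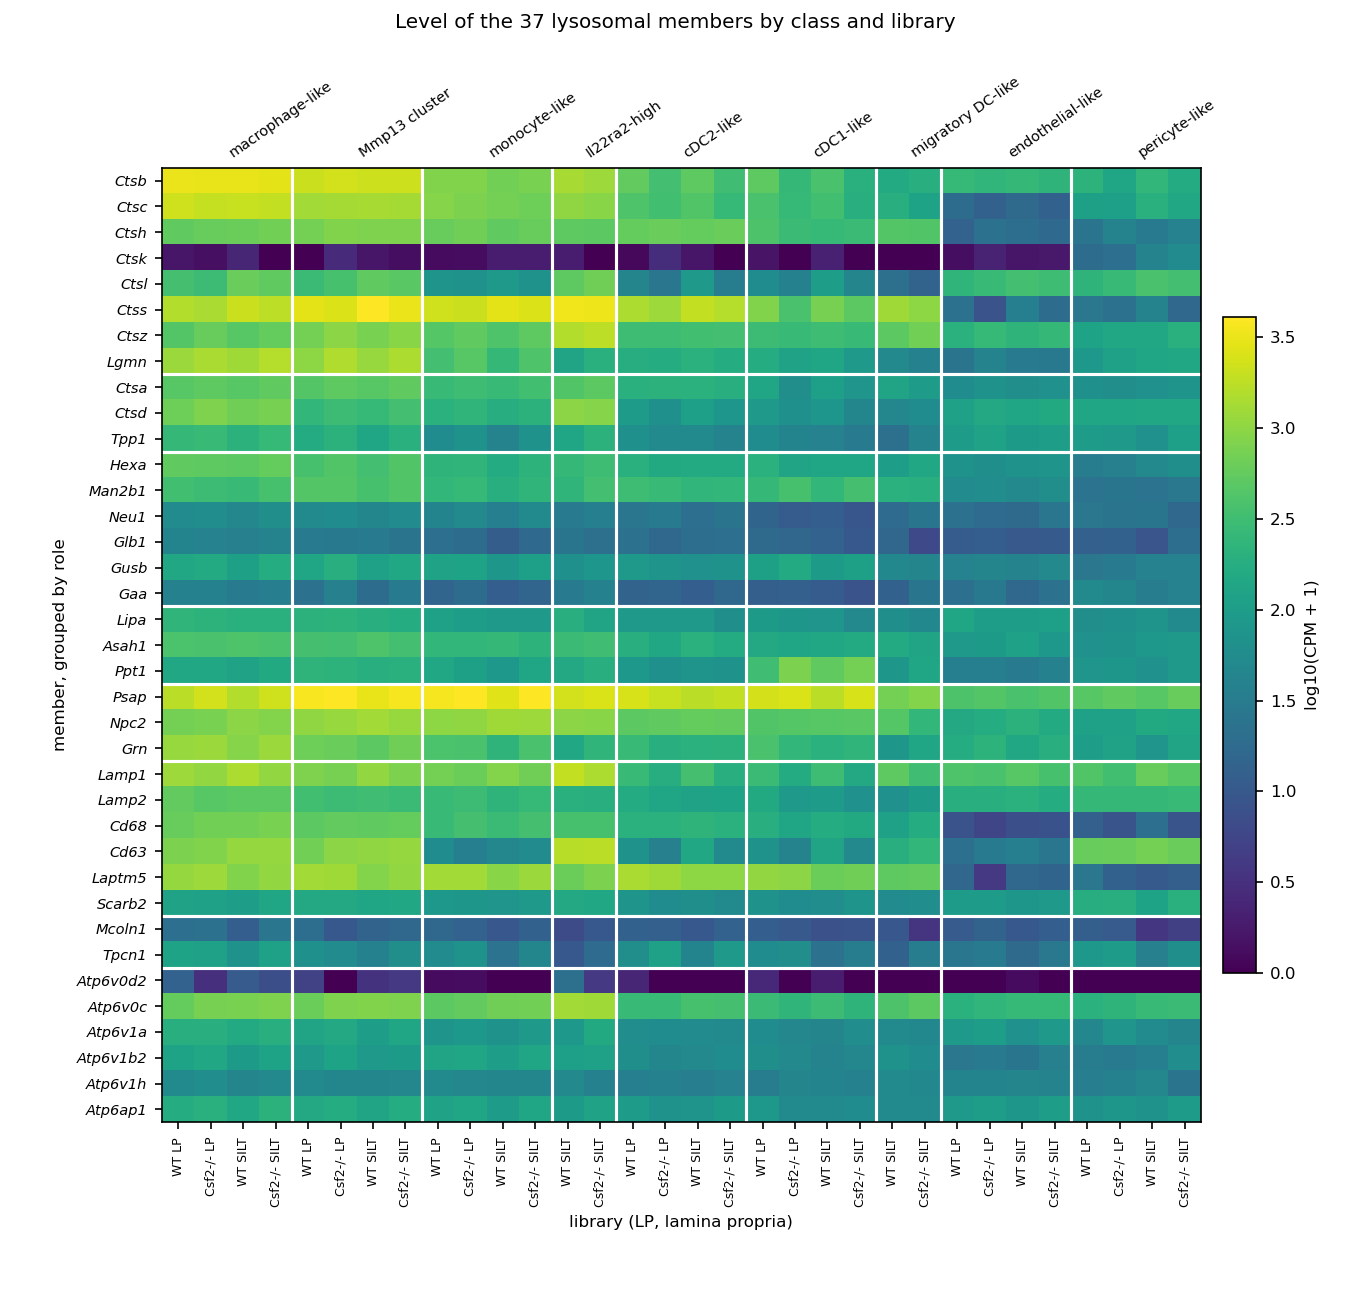
Level of each member (rows, grouped by role and separated by white lines) in each class and library (columns), as log10(CPM + 1) on the colour scale. Among the classes shown, Ctsk is dark in every column except pericyte-like cells. Atp6v0d2 is brightest in wild-type Il22ra2-high cells, at 20.8 CPM, and lies between 2.08 and 12.5 CPM in macrophage-like cells. In the Mmp13 cluster of Csf2-/- lamina propria it is at 0 CPM.

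The Il22ra2-high cells of SILT carried their own set of high members. Ctsz (cathepsin Z) stood at 1585 CPM in wild-type and 1789 CPM in Csf2-/- Il22ra2-high cells, against 471 and 575 CPM in macrophage-like cells of the same libraries. Ctsd, the main aspartic protease of lysosomes, was at 962 and 909 CPM, against 679 and 742 CPM. Cd63, a tetraspanin of late endosomes, was at 1667 and 1757 CPM against 1103 and 1083 CPM, and the pump subunit Atp6v0c was at 1279 and 1252 CPM against 769 and 816 CPM. By contrast Lgmn (legumain, an asparagine-specific protease) was at 127 and 196 CPM in Il22ra2-high cells against 1235 and 1619 CPM in macrophage-like cells. Grn, whose product progranulin supports lysosomal enzymes, showed the same order at 144 and 232 CPM against 889 and 1176 CPM. Tpcn1, a cation channel of endosomes and lysosomes, was at 9.04 and 17.6 CPM against 68.5 and 115 CPM. The 2 libraries of each class did not overlap for any of these 7 genes, which are shown for their differences. The share of all genes without overlap between these classes was not counted. In the shallow cluster alone each of the 7 stayed on the same side of both macrophage-like libraries, with Ctsz at 1459 and 1822 CPM and Lgmn at 74.4 and 72.9 CPM. The deep cluster of wild-type SILT lay on that side too, with Ctsz at 1740 and Lgmn at 192 CPM.

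A few members were high in classes other than macrophages. Ctsk (cathepsin K, a collagen-degrading protease) was a gene of stromal cells here. In fibroblast-like cells it stood at 68.9 CPM (60 UMIs) in wild-type lamina propria, 120 CPM (313 UMIs) in wild-type SILT and 110 CPM (26 UMIs) in Csf2-/- SILT, and Csf2-/- lamina propria had under 20 such cells. Pericyte-like cells came next. Their level was 18.03 CPM (95% interval 12.3 to 25.4, 32 UMIs) in wild-type lamina propria and 19.8 CPM (11.8 to 31.4, 18 UMIs) in Csf2-/- lamina propria. In SILT it was 40.3 CPM (27.2 to 57.5, 30 UMIs) in wild-type and 54.0 CPM (29.5 to 90.6, 14 UMIs) in Csf2-/- cells, so both SILT libraries lay above both lamina propria libraries. The SILT to lamina propria ratio of Ctsk was 2.24 (1.31 to 3.80) in wild-type and 2.72 (1.25 to 5.79) in Csf2-/- pericyte-like cells, and 1.74 (1.31 to 2.33) in wild-type fibroblast-like cells. In the other 8 classes of the map of levels Ctsk lay between 0 and 1.997 CPM. Among those 9 classes, which leave out fibroblast-like cells, it was the 1 member at least 3-fold higher in 1 class than in each other in every library. Over the 32 points of these classes by library, the genes with the pattern most like that of Ctsk were Hspb2 (r = 0.97), Pip5k1b (r = 0.96) and Ccdc3 (r = 0.96). Cd63 was also high in pericyte-like cells, at 584 to 714 CPM, while monocyte-like cells had 35.5 to 55.3 CPM.

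Ppt1, a thioesterase that removes fatty acids from proteins, was highest in cDC1-like cells in all 4 libraries. Its level there was 315 CPM in wild-type lamina propria, 801 CPM in Csf2-/- lamina propria, 544 CPM in wild-type SILT and 723 CPM in Csf2-/- SILT, whereas no other class with at least 20 cells exceeded 237 CPM. This class combines a cluster led by cell cycle genes with a cluster led by Xcr1, and the level of Ppt1 differed between them. In the Xcr1-led cluster, which had under 20 cells in wild-type lamina propria, Ppt1 was at 1311 CPM in Csf2-/- lamina propria, 1032 CPM in wild-type SILT and 1133 CPM in Csf2-/- SILT, and in the cycling cluster at 154 to 391 CPM over the 4 libraries. The Xcr1-led cluster held 16 of 90 cDC1-like cells in wild-type lamina propria, 34 of 70 in Csf2-/- lamina propria, 86 of 314 in wild-type SILT and 41 of 85 in Csf2-/- SILT. The Csf2-/- to wild-type ratio in lamina propria was 2.54 (2.29 to 2.82) over the class and 2.55 (2.14 to 3.04) within the cycling cluster. In SILT it was 1.33 (1.23 to 1.44) over the class, 1.22 (1.06 to 1.41) within the cycling cluster and 1.10 (0.995 to 1.21) within the Xcr1-led cluster.

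**Figure D3:**
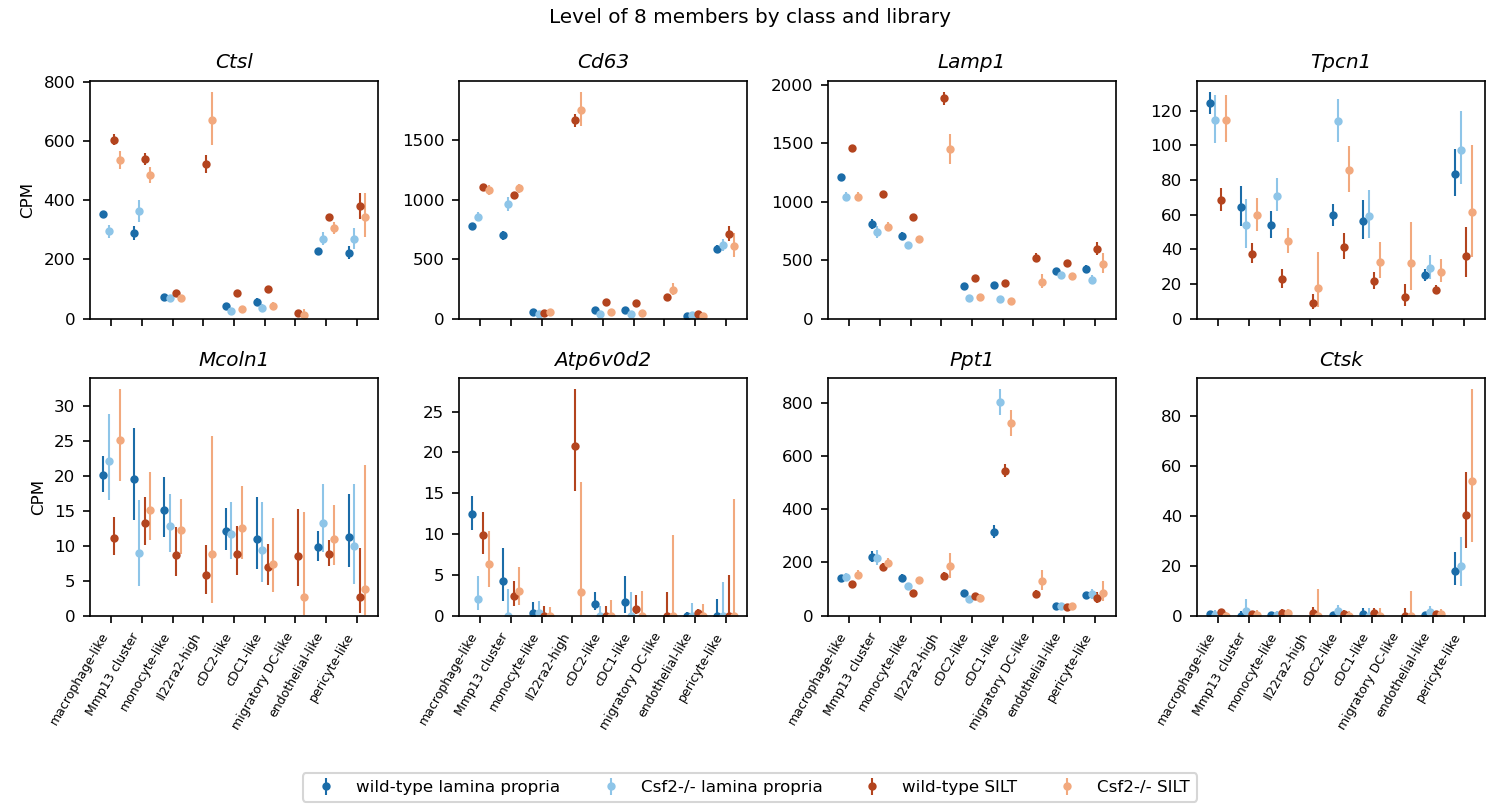
Level of 8 members in CPM (vertical axes, linear from 0) by class of cells, with 1 point per library and exact 95% Poisson intervals. Tpcn1 is lowest in wild-type SILT in each of the 7 classes with all 4 libraries, and, among the classes shown, Ctsk appears in pericyte-like cells and Ppt1 is highest in cDC1-like cells.

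The genotypes were compared first in macrophage-like cells of SILT. The ion channels Mcoln1 and Tpcn1 and the glycosidase Gusb were at least 1.5-fold higher in Csf2-/- than in wild-type SILT, with the counting interval clear of 1, and no member was 1.5-fold lower. These are 3 of 35 members with enough UMIs, against 8.08% of all 8238 genes higher and 3.13% lower by the same rule. The median log2 ratio of the members was 0.20, against 0.09 for all genes, and 24 of 35 were above that of all genes. The count rested on how the cells were chosen. Among all cells with at least 2 C1q UMIs, of which 19.96% in wild-type and 26.2% in Csf2-/- SILT were macrophage-like, 17 of 35 members were higher (11.7% of all genes) and 0 lower (11.7%), with a median of 0.54 against 0.01. Mcoln1, a calcium-releasing channel of the lysosomal wall, stood at 20.1 CPM in wild-type lamina propria, 22.1 CPM in Csf2-/- lamina propria, 11.2 CPM in wild-type SILT and 25.1 CPM in Csf2-/- SILT. Wild-type SILT was thus the low library, and the other libraries lay close together. The SILT ratio of Mcoln1 was 2.25 (1.57 to 3.23), from 60 against 70 UMIs, and on cells thinned to 1000 UMIs it rested on 10 against 9 UMIs, too few for the rule. In the Ccl12-led cluster alone it was 1.91 (0.875 to 4.23, 16 against 14 UMIs), an interval that includes 1.

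Tpcn1 had the same arrangement, at 124, 115, 68.5 and 115 CPM in macrophage-like cells of wild-type lamina propria, Csf2-/- lamina propria, wild-type SILT and Csf2-/- SILT. Its genotype ratio in SILT was 1.68 (1.44 to 1.96), and in lamina propria 0.922 (0.807 to 1.05). Gusb (beta-glucuronidase) stood at 142, 158, 112 and 171 CPM in the same order, with a SILT ratio of 1.52 (1.34 to 1.72), which came to 1.43 with median-of-ratios scaling, 1.45 on thinned cells, 1.32 in the Ccl12-led cluster alone and 1.39 with the Mmp13 cluster added, and so under 1.5. Tpcn1 was past the rule under each of the 15 settings run, with ratios of 1.55 to 2.20. Just under the threshold were the pump accessory protein Atp6ap1 at 1.48 (1.32 to 1.65) and Psap, the precursor of the saposins that help degrade sphingolipids, at 1.43 (1.39 to 1.48). Man2b1 (lysosomal alpha-mannosidase), Grn and Lgmn had ratios of 1.36, 1.32 and 1.31. All 6 glycosidases were above the median of all genes, with a median log2 ratio of 0.31, whereas 3 of 7 cysteine proteases were, with a median of -0.06. Ctsb and Ctss lay slightly below 1, at 0.958 and 0.847. Lamp1 had the lowest ratio of the 35, with levels of 1214, 1045, 1457 and 1045 CPM, 1.39-fold (1.33 to 1.46) lower in Csf2-/- than in wild-type SILT.

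In macrophage-like cells of the lamina propria the pump gene Atp6v0d2, a subunit isoform known from osteoclasts and macrophages, was the single member past the 1.5-fold rule. No member of 36 was higher, against 5.10% of all 8426 genes, and 1 was lower, against 5.90%. The median log2 ratio was 0.09 against 0.00 for all genes. Atp6v0d2 stood at 12.5 CPM (10.5 to 14.7, 147 UMIs) in wild-type and 2.08 CPM (0.677 to 4.86, 5 UMIs) in Csf2-/- lamina propria, 5.99-fold lower (2.51 to 18.7). The 147 UMIs lay in 122 cells, with at most 6 in 1 cell. In SILT the levels were 9.88 CPM (62 UMIs) and 6.29 CPM (15 UMIs), a ratio of 0.637 (0.336 to 1.13) whose interval includes 1. In Il22ra2-high cells Atp6v0d2 stood at 20.8 CPM (46 UMIs in 30 cells) in wild-type and 2.93 CPM (1 UMI) in Csf2-/- SILT, a ratio of 0.141 (0.0035 to 0.826). The lamina propria ratio rested on which cells were taken as macrophage-like. It was 0.40 (10 against 148 UMIs) when the members were kept for clustering, 0.34 with called doublets kept, 0.47 at a finer clustering and 0.53 (8 against 90 UMIs) with at most 5% mitochondrial UMIs per cell. In the last case, on thinned cells, in the Ccl12-led cluster alone and in cells chosen by C1q UMIs the ratio was not past the rule. A floor of 50 CPM leaves the gene out by its level, so that setting cannot test the call. The ratio stayed below 1 in all 15 settings (0.0996 to 0.527). Genes most like Atp6v0d2 over the 32 points were Gm13710, Ccdc106 and Spic (r = 0.82 each). Spic encodes a transcription factor of iron-recycling macrophages.

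The remaining members stayed within the 1.5-fold rule between genotypes and tissues in macrophage-like cells as clustered. The proteases Ctsh and Ctsa stood at 536 to 692 CPM and 470 to 539 CPM, and the peptidase Tpp1 at 211 to 275 CPM. Of the glycosidases, Hexa (a hexosaminidase that acts on gangliosides) stood at 495 to 564 CPM, Glb1 (beta-galactosidase) at 36.3 to 42.2 CPM, Gaa (the acid alpha-glucosidase) at 29.0 to 37.5 CPM and the sialidase Neu1 at 46.5 to 59.9 CPM. Among genes of lipid handling, Asah1 (acid ceramidase) stood at 373 to 418 CPM, the acid lipase Lipa at 192 to 231 CPM and Npc2, which carries cholesterol out of the lumen, at 713 to 953 CPM. The membrane proteins Lamp2, Cd68 and Scarb2, the last a carrier of glucocerebrosidase, stood at 465 to 560, 584 to 759 and 105 to 137 CPM, and the leukocyte membrane protein Laptm5 at 848 to 1197 CPM. The pump subunits Atp6v1a, Atp6v1b2 and Atp6v1h stood at 159 to 192, 91.9 to 141 and 43.5 to 57.1 CPM. Ctsk had too few UMIs in macrophage-like cells to be compared.

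**Figure D4:**
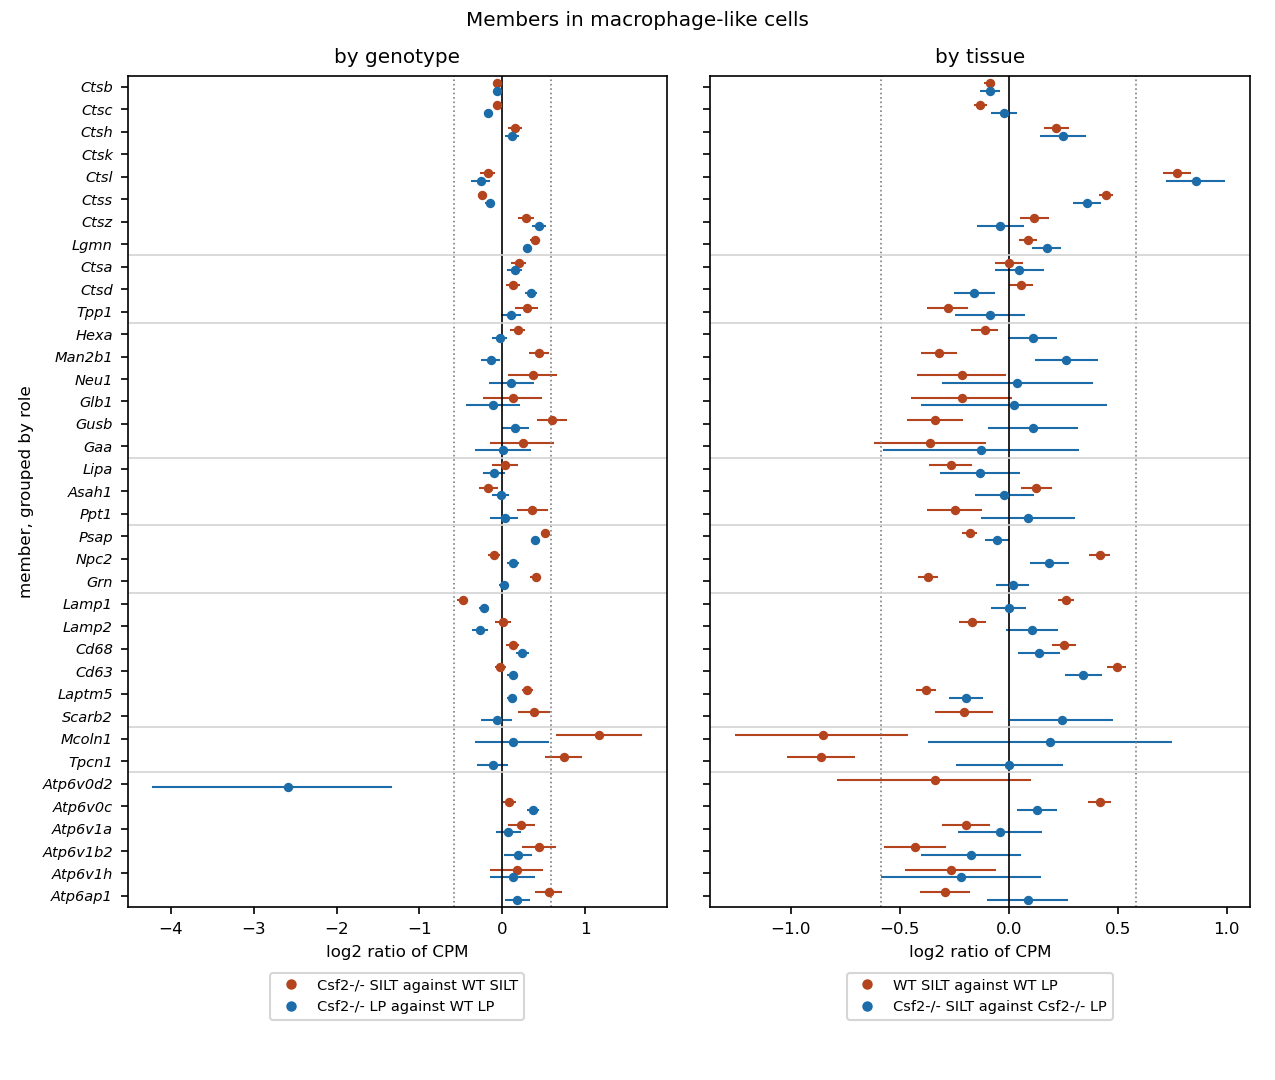
Log2 ratio of CPM (horizontal axes) of each measured member (rows) in macrophage-like cells, by genotype within each tissue (left) and by tissue within each genotype (right), with exact 95% intervals and dotted lines at 1.5-fold. Most members lie within the dotted lines; Mcoln1, Tpcn1, Gusb and Atp6v0d2 cross them on the left and Ctsl, Mcoln1 and Tpcn1 on the right, and the panels have different scales.

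By tissue, Ctsl (cathepsin L) was higher in SILT in both genotypes. Its level in macrophage-like cells was 354 CPM in wild-type lamina propria and 295 CPM in Csf2-/- lamina propria, against 604 CPM in wild-type SILT and 534 CPM in Csf2-/- SILT, with no overlap between tissues. The ratios were 1.71 (1.63 to 1.79) in wild-type and 1.81 (1.65 to 1.99) in Csf2-/- cells. Ctsl was the 1 member of 36 higher in wild-type SILT than in wild-type lamina propria, against 6.28% of all 8291 genes. Mcoln1 and Tpcn1 were the 2 lower, against 16.6% of all genes, with folds of 1.80 (1.38 to 2.39) and 1.81 (1.63 to 2.03). The median of the members was -0.19 and that of all genes -0.20, a shift shared by the genes measured, so ratios in this comparison are to be read against -0.20. With median-of-ratios scaling the median came to 0.01, and Mcoln1 and Tpcn1 were lower (ratios of 0.64 and 0.63), against 5.86% of all genes. Ctss, Cd63, Npc2 and Atp6v0c passed the rule as higher beside Ctsl at 1.96. The higher members were thus 5 of 36, against 13.6% of all genes under that scaling. In Csf2-/- cells Ctsl was the 1 of 35 members higher in SILT, against 2.30% of 8399 genes, and 0 were lower, against 3.95%. The wild-type ratio of Ctsl was 1.38 in the Ccl12-led cluster alone, 1.42 on thinned cells and 1.31 in cells chosen by C1q UMIs, all under 1.5. Mcoln1 was not past the rule on thinned cells (9 against 14 UMIs) or in the Ccl12-led cluster (14 against 40 UMIs). In the cells chosen by C1q UMIs, of which 40.5% in wild-type lamina propria were macrophage-like, 18 of 35 members were lower in wild-type SILT, against 34.3% of all genes, and 0 higher, against 10.4%, with a median of -0.59 against -0.35. The 4 comparisons share libraries, so their values are given side by side only.

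In wild-type cells the tissue pattern of Ctsl and Tpcn1 was not limited to macrophage-like cells. The SILT to lamina propria ratio of Ctsl was 1.87 in the Mmp13 cluster, 2.05 in cDC2-like cells, 1.79 in cDC1-like cells, 1.51 in endothelial-like cells (343 against 227 CPM) and 1.70 in pericyte-like cells. In monocyte-like cells its ratio was 1.16 (0.975 to 1.39), from 85.2 against 73.3 CPM. In Csf2-/- cells Ctsl passed the rule in macrophage-like cells alone among the 6 classes compared. Its ratio was 1.34 (1.20 to 1.503) in the Mmp13 cluster, 1.31 (0.930 to 1.85) in cDC2-like cells, 1.14 (0.752 to 1.72) in cDC1-like cells, 1.13 (1.02 to 1.26) in endothelial-like cells and 1.004 (0.833 to 1.21) in monocyte-like cells. Tpcn1 was lower in wild-type SILT than in wild-type lamina propria 2.36-fold in monocyte-like cells, 2.62-fold in cDC1-like cells, 2.30-fold in pericyte-like cells, 1.72-fold in the Mmp13 cluster, 1.497-fold in endothelial-like cells and 1.44-fold in cDC2-like cells. Between the Csf2-/- libraries the ratio of Tpcn1 was past the rule in monocyte-like (0.632) and cDC1-like cells (0.552). Comparing genotypes in SILT, Tpcn1 was called higher in Csf2-/- cells in all 6 classes in which it was measured among the 7 used for genotype comparisons, with ratios of 1.51 to 2.07. The lowest of these, in cDC1-like cells, differed by cluster, at 0.821 (0.424 to 1.49, 14 against 60 UMIs) in the cycling cluster and 3.47 (1.77 to 7.04, 26 against 15 UMIs) in the Xcr1-led cluster. In pericyte-like cells the ratio of Tpcn1 was 1.70 (0.857 to 3.27), with an interval that includes 1. The endothelial-like levels of Tpcn1 were 24.9, 29.2, 16.7 and 27.0 CPM in wild-type lamina propria, Csf2-/- lamina propria, wild-type SILT and Csf2-/- SILT, so the low value of wild-type SILT appears in myeloid and vascular cells alike. With 1 library per group, a property of that library and one of its genotype and tissue cannot be told apart.

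Lamp1 was lower in Csf2-/- than in wild-type cells in every class measured in both tissues. Its ratios ran from 0.486 to 0.784 over 7 classes in SILT and from 0.588 to 0.920 over 6 classes in lamina propria, and 2 classes in each tissue, the cDC2-like and cDC1-like, passed the 1.5-fold rule. Ctss was also below 1 in all 7 classes in SILT (0.511 to 0.967) and all 6 in lamina propria (0.347 to 0.922). The lowest ratio of Ctss in each tissue was that of endothelial-like cells, where Ctss is read as background below. In SILT, Psap and Grn were above 1 in all 7 classes, at 1.08 to 1.48 and 1.05 to 1.66. So were Atp6ap1, Atp6v1b2, Gusb and Man2b1 in SILT, while Ctsc, also read as background in endothelial-like cells, was below 1 in all 7. In lamina propria Gaa and Npc2 were above 1 and Scarb2 below 1 in all 6 classes. The share of all genes with the same direction in every class was not counted. Directions here are read against a ratio of 1, while the median log2 ratio of all genes in macrophage-like cells of SILT was 0.09. They are therefore a description only.

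The Mmp13 cluster and the monocyte-like cells showed small differences in the same range. In the Mmp13 cluster 2 of 35 members were higher in Csf2-/- SILT (background 9.82%) and 0 lower (3.21%). These were Tpcn1 and Gaa, the acid alpha-glucosidase that breaks down glycogen, at a ratio of 1.62 (1.17 to 2.23). In lamina propria Gaa was again the 1 higher member (3.23% of all genes), at 1.66 (1.05 to 2.63), and Mcoln1 the 1 lower (8.98%), from 10 against 37 UMIs. In monocyte-like cells 5 of 35 members were higher in Csf2-/- SILT, against 11.0% of all genes, and 0 lower, against 3.34%. They were Tpcn1, Lgmn, Grn, Ppt1 and the peptidase Tpp1. Tpp1 was at 56.5 and 69.0 CPM in wild-type and Csf2-/- lamina propria and at 39.9 and 69.7 CPM in wild-type and Csf2-/- SILT, a SILT ratio of 1.75 (1.40 to 2.19). Lgmn was at 338, 465, 255 and 411 CPM in that order, and Grn at 392, 376, 224 and 372 CPM, so wild-type SILT was again the low library for each of these 3 genes. In lamina propria monocyte-like cells 0 members were higher, against 3.71%, and 1 was lower, against 5.33%, namely Cd63 at 55.3 and 35.5 CPM. The summed C1q genes, which define macrophages, stood in monocyte-like cells at 20.02%, 13.1%, 10.1% and 12.03% of the macrophage-like level in wild-type lamina propria, Csf2-/- lamina propria, wild-type SILT and Csf2-/- SILT, and their part in these differences was not tested.

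In Il22ra2-high cells 4 of 34 members were higher in Csf2-/- than in wild-type SILT, against 5.58% of 6503 genes, and 1 was lower, against 6.04%. The higher members were the proteases Lgmn at 1.55 (1.17 to 2.03) and Tpp1 at 1.52 (1.16 to 1.98), Grn at 1.61 (1.24 to 2.07), and the catalytic pump subunit Atp6v1a, at 84.1 and 155 CPM, a ratio of 1.85 (1.34 to 2.52). The lower member was Atp6v0d2. These ratios rest on 53 to 79 UMIs per gene in the Csf2-/- library, and on 1 UMI for Atp6v0d2. In the shallow cluster alone 2 of 33 were higher, against 3.64% of all genes, and 1 was lower, against 5.73%. Of the 5 members above, Atp6v1a stayed past the rule there at 1.96 (1.22 to 3.06). Lgmn was at 0.980 (0.503 to 1.76), Tpp1 at 1.23 (0.742 to 1.94), Grn at 1.38 (0.894 to 2.07) and Atp6v0d2 at 0.237 (0.00579 to 1.43), each with an interval that includes 1. The deep cluster, with 5 Csf2-/- cells, was not compared.

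In conventional dendritic cells the members past the rule were mostly lower in Csf2-/- cells. In cDC2-like cells 5 of 35 were lower in SILT (background 6.68%) and 5 in lamina propria (10.0%), while 1 was higher in each (7.87% and 3.98%), which was Tpcn1 at 2.07 (1.63 to 2.62) and 1.91 (1.64 to 2.23). In cDC1-like cells 8 of 34 were lower in SILT (8.19%) and 8 of 35 in lamina propria (14.5%). There 1 was higher in SILT (7.90%), Tpcn1, and 1 in lamina propria (8.15%), Ppt1. The members lower in cDC2-like cells were Ctsb, Ctsl, Lamp1 and Cd63 in both tissues, with Ctsc in SILT and Ctsd in lamina propria. In cDC1-like cells Ctsb, Lamp1 and Cd63 were lower in both tissues, with Ctsc, Ctsl, Lgmn, Ctsd and Lipa in SILT and Ctss, Ctsa, Hexa, Lamp2 and Atp6ap1 in lamina propria. Ctsb stood in cDC2-like cells at 553, 345, 520 and 319 CPM in wild-type lamina propria, Csf2-/- lamina propria, wild-type SILT and Csf2-/- SILT, and in cDC1-like cells at 527, 250, 369 and 194 CPM. Both Csf2-/- libraries lay below both wild-type libraries in each class. Lamp1 did so too, at 276, 175, 349 and 188 CPM in cDC2-like and 284, 167, 309 and 150 CPM in cDC1-like cells, 1.58-fold to 2.06-fold lower. Both genes were already called lower in both tissues, and how many of all genes separate by genotype in this way was not counted. Cd63 was at 68.2, 36.9, 140 and 52.9 CPM in cDC2-like cells. The cDC1-like values pool the cycling and the Xcr1-led cluster. The mix of these clusters differed between libraries, as given for Ppt1, and its part in the cDC1-like values was not tested.

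The C1q genes, which define macrophages, moved with these dendritic cell values. Relative to macrophage-like cells of the same library, the summed C1q genes stood in cDC2-like cells at 9.39%, 4.76%, 12.9% and 6.76% in wild-type lamina propria, Csf2-/- lamina propria, wild-type SILT and Csf2-/- SILT, and in cDC1-like cells at 13.9%, 7.72%, 12.7% and 4.32%. On the same scale Cd63 was at 8.71%, 4.33%, 12.7% and 4.88% in cDC2-like cells, which is 0.722 to 0.988 times the C1q value, so its level there did not exceed that of the macrophage markers. Ctsb was 1.32 to 2.33 times and Lamp1 1.86 to 3.52 times the C1q value in cDC2-like cells. A small cDC2-like cluster of 26, 11, 36 and 9 cells in the 4 libraries was led by Il1rl1 but also by Cd209f, Adam33 and Ccl8, which lead the Lyve1 macrophage cluster too. The part of macrophage RNA in the lower member levels of Csf2-/- dendritic cells was not tested.

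Endothelial-like cells, with no phagocytic role of the macrophage kind, carried a subset of the members. Ctsl in endothelial-like cells reached 56.8% to 91.5% of the macrophage-like level, Ctsz 43.8% to 47.2% and Lamp2, the second glycoprotein of the lysosomal wall, 32.6% to 40.5%, each 31.7 to 206 times the C1q value, which was 0.444% to 1.14%. By contrast Ctss, Ctsc, the macrophage glycoprotein Cd68 and the leukocyte membrane protein Laptm5 stood at 0.251% to 1.75%, that is 0.565 to 2.29 times the C1q value, and are read as background. By genotype 2 of 33 members were higher in Csf2-/- SILT (9.85%), Tpcn1 at 1.62 and the sialidase Neu1 at 1.51, and 1 was lower (3.39%), Ctss. In lamina propria 3 of 34 were higher (4.55%), namely Ctsh at 1.74, Lgmn at 1.67 and Cd63 at 1.57, and 2 lower (4.96%), Ctss and Laptm5. The 3 lower calls thus fall on genes at the level of background. The 3 higher genes of the lamina propria stood little above it in wild-type cells, but further above it in Csf2-/- cells. Ctsh was at 2.40% of the macrophage-like level in wild-type and 3.83% in Csf2-/- cells, Lgmn at 2.05% and 2.78% and Cd63 at 2.52% and 3.62%. In wild-type cells these are 2.33, 1.99 and 2.45 times the C1q value, where Lgmn lies within the range read as background. In Csf2-/- lamina propria, where the C1q value was 0.444%, all 3 lay outside that range. Neu1, in contrast, was at 36.2% and 42.4% of the macrophage-like level in wild-type and Csf2-/- SILT.

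The other lysosomal genes came from lists of 113 further genes, of which 112 were found. In macrophage-like cells of SILT 10 of 89 measured were higher in Csf2-/-, against 8.08% of all genes, and 1 lower, against 3.13%, with a median log2 ratio of 0.17 against 0.09 for all genes. Among those with the largest ratio of their list were Slc11a1 (NRAMP1, an iron and manganese exporter of phagosomes) at 81.9 and 147 CPM, a ratio of 1.79 (1.56 to 2.06), and Slc15a3, a peptide transporter of endosomes, at 47.2 and 88.0 CPM, 1.87 (1.56 to 2.23). The pump subunit Tcirg1 was at 42.9 and 69.2 CPM, 1.61 (1.32 to 1.97), and was the 1 of 12 other pump genes past the rule. Of 16 measured glycosidases and sulfatases on these lists, 15 were above the median of all genes, although 1 of them, the mannosidase Manba at 1.62 (1.22 to 2.15), passed the rule. In lamina propria 9 of 89 were higher, against 5.10% of all genes, and 1 lower, against 5.90%, with a median of 0.07 against 0.00. Lpl, a lipase that is secreted by macrophages, was at 72.8 and 162 CPM, 2.22 (1.97 to 2.51), and the acid phosphatase Acp5 at 13.1 and 28.8 CPM, 2.20 (1.63 to 2.94). Cstb (cystatin B), an inhibitor of cysteine cathepsins, was at 265 and 465 CPM, 1.75 (1.64 to 1.88). Of the 15 transcription factors and nutrient sensors of the lysosome, 6 of 14 measured were lower in wild-type SILT than in wild-type lamina propria, against 16.6% of all genes, and 0 higher, against 6.28%, with a median of -0.47 against -0.20 for all genes. Tfe3, a relative of TFEB, was at 117 CPM in wild-type lamina propria and 64.8 CPM in wild-type SILT.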

How the data were processed

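Droplet libraries (10x 3' v2) of CD11b-selected colon cells were deposited as gene by barcode matrices of whole UMI counts, not normalized, 1 library per group. Per the submitters' processing notes, Cell Ranger 2.1.1 and mm10 were used; the matrix header names version 6.0.0, so the version behind these counts is not settled. Barcodes under 200 detected genes or above 10% mitochondrial UMIs were dropped, and doublets called by Scrublet (expected rate 0.8% per 1000 cells) were removed (7 to 136 per library). Cells were clustered with scanpy 1.11.5 and leidenalg 0.10.2 (Python 3.11.15, numpy 2.4.6, scipy 1.17.1, pandas 2.3.3, igraph 0.11.9, matplotlib 3.10.9) on 2000 variable genes, 30 principal components, 15 neighbours and resolution 1, without batch correction and without 149 member and other lysosomal genes. Clusters were named from marker lists. Classes with fewer than 20 cells in a library were not used there.

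Within each library, UMIs were added up over the cells of a class and scaled to the class total (CPM). Intervals are exact 95% Poisson intervals for levels and exact conditional binomial intervals for ratios, and cover counting error only. They were tested on simulated Poisson counts without spread between cells, so that test cannot speak to such spread. A gene was measured in a comparison with at least 10 CPM in 1 library and 30 UMIs over both, and counted when the ratio was at least 1.5 either way with its interval clear of 1. The same rule over all genes gives the background shares. No p-value was computed, because each group is 1 library. Free RNA was not subtracted; the summed C1q genes serve as its measure. All 37 members may be named; values are given in full for members past the rule in macrophage-like cells or at least 3-fold higher in 1 class, and of other lists the 2 genes with the largest ratio per comparison. Promoter motifs were counted on RefSeq promoters of GRCm38.p6, leaving out chromosome 18. The members and lists were chosen with earlier results of these data known. Alternatives changed the clustering, doublet and mitochondrial filters, scaling, floors, depth and choice of macrophage cells.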

Additional observations from a re-analysis of the deposited data

How the results depend on the processing

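The alternatives that take the Lyve1 or the Ccl12 macrophage cluster alone, or add the Mmp13 cluster, or take the shallow Il22ra2-high cluster alone, were chosen after seeing the data. Each count of members is followed in parentheses by the share of all genes called the same way under that setting. In each pair of libraries below, the cause of a change was not tested. Of members higher in Csf2-/- than in wild-type SILT, 3 (8.08%) as reported, 5 (706 of 8209 genes) were counted with members kept for clustering, 6 (5.43%) on cells thinned to 1000 UMIs, 7 (10.5%) in the Ccl12 cluster alone and 17 (11.7%) in cells with at least 2 C1q UMIs; the median of 0.20 became 0.105 with median-of-ratios scaling and 0.536 in the C1q cells. For Csf2-/- against wild-type lamina propria 1 member was lower (5.90%) as reported. It was lost (0) with at most 5% mitochondrial UMIs (5.19%), a floor of 50 CPM (5.03%) and thinning (4.62%). The C1q cells (12.8%) and the Ccl12 cluster (6.59%) lost it too. A floor of 50 CPM leaves out Atp6v0d2 and Mcoln1 by their level, so it cannot test their calls. The median of 0.09 became 0.136 with at most 5% mitochondrial UMIs. For wild-type SILT against lamina propria, members higher numbered 5 (13.6%) with median-of-ratios scaling, 2 (6.80%) with the Mmp13 cluster added and 0 with thinning, the C1q cells and the Ccl12 cluster (6.26%, 10.4% and 6.24%), against 1 (6.28%). Members lower numbered 1 with a floor of 50 CPM (14.0%) and with thinning (14.1%), 4 (21.4%) in the Ccl12 cluster and 18 (34.3%) in the C1q cells, against 2 (16.6%), and the median became -0.59 in the C1q cells. For Csf2-/- SILT against lamina propria 2 members (1.80%) were higher with no CPM floor, 1 (3.94%) was lower in the Ccl12 cluster, and the median of 0.04 turned to -0.00914 with members kept for clustering, -0.0198 with the Mmp13 cluster added, -0.0278 with doublets kept, -0.031 in the Lyve1 cluster and -0.0709 in the C1q cells. The members' share in Il22ra2-high cells was 1.71% in wild-type and 1.47% in Csf2-/- SILT when single barcodes with at least 500 CPM of Il22ra2 were taken in place of clusters, and 1.91% and 1.98% in the shallow cluster alone, against 2.13% and 2.18%. That cluster alone had 2 (3.64%) members higher in Csf2-/- SILT against 4 (5.58%), and a median of -0.0206 against 0.103. No paired analysis was possible because each group has 1 library. With 1 library per group, differences between mice, sexes and preparations cannot be told apart from genotype and tissue, and members under about 10 CPM, such as Atp6v0d2 and Ctsk outside their main class, are limited by counts.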
